A study of Homo sapiens with 12 samples.

Results

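DNA with closely spaced runs of guanine can fold into a stacked structure, the G-quadruplex, and BG4 is an engineered antibody fragment that binds it. The genes described here are 7 members of the RAS, RAF and MAPK signalling route: the RAS GTPases HRAS and NRAS, the RAF kinases ARAF and BRAF, the MEK kinases MAP2K1 and MAP2K2, and the tyrosine kinase SRC. They were taken by name, and for each the TSS (transcription start site) window of 400 bp on its strand with the centre nearest its RefSeq 5′ end was used if it lay within 1 kb, together with every BG4 peak from 5 kb upstream to 5 kb downstream of the gene. By this rule 6 of the 7 genes had a window, out of 16892 protein-coding genes with one and 58381 windows in all. HRAS had none, since the nearest window on its strand lay 1711 bp upstream of its 5′ end, and it is described by its peaks.

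All chromatin came from HEK293, an established line of human embryonic kidney cells, grown without a treatment that differed between samples and fixed with formaldehyde. The 9 ChIP libraries form 3 biological replicates (BioRep1, BioRep2 and BioRep3) with 3 technical libraries each, every one made from 750 ng of chromatin with 10 pmol of BG4. There is 1 condition, so the comparisons are between genes and between biological replicates. The 3 input libraries were not analysed here, and no level is relative to a library made without the antibody. A p-value between replicates is set only by the spread of technical libraries, since these are the units of the test. The labels do not say whether the biological replicates were separate cultures, so differences between them may be technical. Depth ran from 372030 to 846114 reads in windows per library, and BioRep1, BioRep2 and BioRep3 had 1562658, 2061045 and 1931653 such reads and 7931, 11665 and 13049 peaks. A DNA pull-down holds no RNA level, so the cell line was not checked by marker genes.

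In this route, growth factor receptors and SRC family kinases lead to exchange factors that load RAS with GTP. Active RAS recruits RAF kinases to the membrane, RAF phosphorylates MEK, and MEK phosphorylates the ERK kinases, which act on transcription factors and other targets. The HRAS promoter and the NRAS messenger RNA are known from other work as sequences that fold into G-quadruplexes in the test tube. BG4 in this assay reads folded DNA, after RNase treatment, and not transcription.

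The DNA under the shared peaks is shown first, because runs of guanine are what a G-quadruplex is built from. Each sequence below is the stretch upstream of the RefSeq 5′ end that peaks of at least 2 lists cover, read from RefSeq promoter sequences (GRCh38.p14, 250 bases before to 50 after a start) and written 5′ to 3′ on the gene's strand. Capitals mark runs of 3 or more G and runs of 3 or more C, the second being guanine runs of the opposite strand. The stretches are chr11:535577-535805 for HRAS and chr1:114716777-114716818 for NRAS, both on the minus strand. The others are chrX:47561037-47561172 for ARAF and chr15:66386662-66386911 for MAP2K1 on the plus strand, and chr19:4124127-4124320 for MAP2K2 on the minus strand.
HRAS: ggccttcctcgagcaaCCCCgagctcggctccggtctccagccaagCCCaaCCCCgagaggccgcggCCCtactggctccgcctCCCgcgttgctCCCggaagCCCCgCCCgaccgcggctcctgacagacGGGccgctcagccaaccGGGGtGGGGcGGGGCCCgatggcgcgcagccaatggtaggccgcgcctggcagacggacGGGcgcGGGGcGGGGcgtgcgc
NRAS: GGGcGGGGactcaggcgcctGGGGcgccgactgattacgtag
ARAF: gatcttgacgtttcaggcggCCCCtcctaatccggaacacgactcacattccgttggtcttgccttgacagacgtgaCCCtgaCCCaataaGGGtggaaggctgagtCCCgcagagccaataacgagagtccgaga
MAP2K1: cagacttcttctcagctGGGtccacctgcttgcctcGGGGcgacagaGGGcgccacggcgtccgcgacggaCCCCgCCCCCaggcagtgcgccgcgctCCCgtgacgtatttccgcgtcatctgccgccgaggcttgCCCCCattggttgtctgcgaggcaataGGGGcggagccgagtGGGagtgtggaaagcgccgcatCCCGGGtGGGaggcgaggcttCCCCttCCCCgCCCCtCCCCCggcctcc
MAP2K2: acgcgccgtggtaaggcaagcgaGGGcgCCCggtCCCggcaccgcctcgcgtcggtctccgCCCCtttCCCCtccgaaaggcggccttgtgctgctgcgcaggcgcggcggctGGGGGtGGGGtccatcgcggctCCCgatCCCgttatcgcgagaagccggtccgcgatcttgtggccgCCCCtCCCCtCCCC

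The stretches differed in which strand held the runs. The HRAS stretch of 229 bases held 7 runs of G and 9 of C, the MAP2K1 stretch of 250 bases also 7 and 9, and the MAP2K2 stretch of 194 bases 3 and 9. In NRAS the 42 bases held 3 runs of G and none of C, so its guanine runs were on the gene's strand. ARAF had the fewest for its length, with 1 run of G and 4 of C in 136 bases, and a GC content of 55.9%, against 71.2 to 77.3% in the other stretches. For BRAF the peaks in its window lay outside the RefSeq promoter sequence, which belongs to a start 661 bp farther downstream, and no sequence is shown. SRC had no entry in the promoter table.

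A G-quadruplex motif, taken as 4 runs of GGG or longer separated by 1 to 7 bases of any kind on either strand, was in the promoter sequence of 3 of 6 members, against 30.1% of 15843 protein-coding promoters of the same length. NRAS held it on the gene's strand from base -109 to -92, counted from the RefSeq 5′ end. This lay within the BioRep3 peak and upstream of the peaks of BioRep1 and BioRep2. MAP2K1 held it on the opposite strand from base -28 to -8, inside the peaks of BioRep2 and BioRep3 and downstream of that of BioRep1, which ended at -37. The HRAS match lay 22 to 44 bases downstream of the start, on the opposite strand, inside the peaks of BioRep2 and BioRep3 and downstream of that of BioRep1. The TSS at the window's centre lay upstream of the RefSeq 5′ end by 123 bp in NRAS, 105 bp in ARAF and 95 bp in MAP2K1. Counted from that TSS, the NRAS and MAP2K1 matches lie downstream of a start. With loops of up to 12 bases, 5 of 6 members held a match, against 45.1% of promoters, and ARAF was the exception. The MAP2K2 match so added, from base -250 to -213, lay upstream of the BioRep1 and BioRep2 peaks and only partly inside that of BioRep3. The BRAF matches so added lay in none of its peaks. A match is a property of the letters, and whether it was the folded site was not tested.

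Peaks shared by all 3 lists lay at HRAS, NRAS, MAP2K1 and MAP2K2, and each of these shared regions, merged from the peaks, spanned the gene's start. The bases common to all 3 lists reached the RefSeq 5′ end only in HRAS. In NRAS, MAP2K1 and MAP2K2 they ended upstream of it, at -11, -37 and -107. A region from 5 kb upstream to 5 kb downstream that peaks of all 3 lists overlapped was found for 4 of 7 members, against 33.9% of 20056 protein-coding genes. A long gene has more room for such a region, and no test was made. ARAF, BRAF and SRC had peaks that overlapped between BioRep2 and BioRep3 but no region shared by all 3, so without BioRep1 the count was 7 of 7, against 44.6%. Of the 22 peaks of the 7 genes, 12 belonged to a shared region. The peak positions are plotted by distance from each start.

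**Figure D1:**
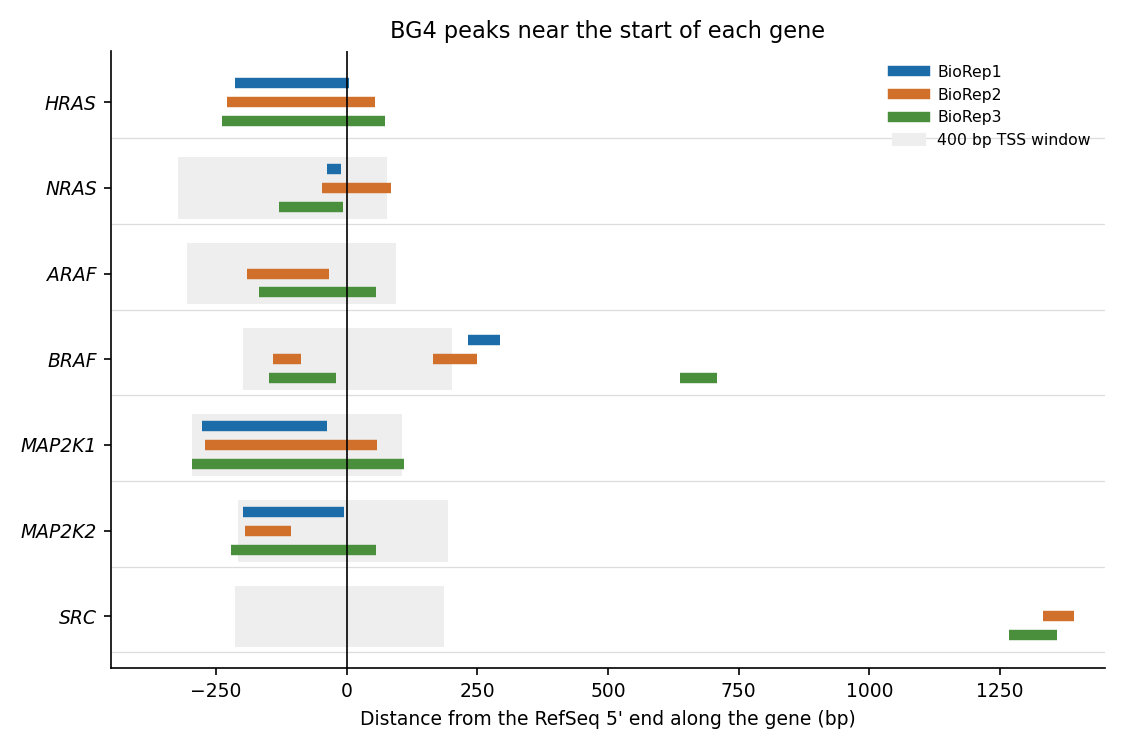
BG4 peaks of each biological replicate (colours) along each gene, by distance in bp from the RefSeq 5′ end (0, upstream negative), with the 400 bp TSS window in grey where the rule gave one. HRAS, NRAS, MAP2K1 and MAP2K2 have overlapping peaks of all 3 replicates across or just upstream of the start, SRC has peaks only beyond 1266 bp downstream, and an ARAF peak of BioRep3 about 5 kb upstream is off the axis.

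HRAS, which encodes a membrane-bound GTPase, had long peaks that lay one inside the next (gene chr11:532242-535576, minus strand). Its peaks measured 219 bp in BioRep1, 284 bp in BioRep2 and 313 bp in BioRep3. The BioRep1 peak lay wholly inside that of BioRep2, and this inside that of BioRep3, all over the sequence shown above. Counted in bp from the RefSeq 5′ end, their upstream edges lay at -214 in BioRep1, -229 in BioRep2 and -238 in BioRep3. The window 1711 bp farther upstream (chr11:537088-537487, ENSG00000174775.16), which the rule leaves out, had 10.8 ± 4.67 CPM (reads per 1000000 reads of the library in windows; SD, n = 3 biological replicates) and no peak. The nearest window on the HRAS strand thus missed the place where its peaks lay, and no read density was measured there.

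NRAS, the RAS gene often mutated in melanoma and leukaemia, had a peak of each list in its window (chr1:114716695-114717094, ENSG00000213281.4, gene chr1:114704469-114716771). The window held 45.4, 34.9 and 43.5 CPM in the BioRep1 libraries, 38.2, 41.4 and 43.9 CPM in BioRep2, and 37.4, 58.9 and 35.4 CPM in BioRep3. The 3 groups overlapped, and 1 BioRep3 library stood above the rest. The mean was 42.1 ± 1.55 CPM (SD, n = 3), above 70.5% of 16732 protein-coding windows. The shared part was narrow: the BioRep1 peak was 27 bp long, and only 6.42% of the peaks in its list were shorter. The peaks of BioRep2 and BioRep3 overlapped by 42 bp, and the BioRep2 peak reached 84 bp downstream of the start. Under a minimum of 50 bp of peak in the window, NRAS lost its call.

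ARAF, a RAF kinase on the X chromosome, had a peak in the lists of BioRep2 and BioRep3, and none in that of BioRep1 (window chrX:47560901-47561300, ENSG00000078061.12, gene chrX:47561205-47571908). Its window held 37.6, 26.9 and 34.4 CPM in the BioRep1 libraries, 39.9, 42.5 and 39.2 CPM in BioRep2, and 40.5, 41.6 and 47.2 CPM in BioRep3. All BioRep1 libraries lay below all libraries of the other replicates. The mean was 38.9 ± 5.28 CPM (SD, n = 3), above 67% of protein-coding windows. The overlapping peaks were 159 bp long in BioRep2 and 226 bp in BioRep3, and they shared 136 bp upstream of the RefSeq 5′ end. A further BioRep3 peak of 39 bp lay about 5 kb upstream, with no counterpart in the other lists. In edgeR's quasi-likelihood test over all windows, the log2 of BioRep1 over BioRep2 was -0.24 (SE 0.24, adjusted p = 0.876) and that of BioRep1 over BioRep3 was -0.29 (SE 0.24, adjusted p = 0.823). Neither passed, so the missing BioRep1 peak was not matched by a difference in read density that this design could call.

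BRAF, the RAF kinase most often mutated in cancer, had peaks in several places near its start and none that all 3 lists shared (gene chr7:140713328-140924929, window chr7:140924729-140925128, ENSG00000157764.13). The window held 39.1, 64.5 and 68.9 CPM in the BioRep1 libraries, 64.2, 49.6 and 58 CPM in BioRep2, and 70.1, 54.6 and 52.2 CPM in BioRep3. The groups overlapped, with the lowest value in BioRep1 and the highest in BioRep3. Their means were close, at 57.5, 57.3 and 59 CPM, or 57.9 ± 0.928 CPM (SD, n = 3), above 84% of protein-coding windows. The 3 means lay closer together than the libraries within any replicate.

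Upstream of the BRAF 5′ end a BioRep2 peak of 54 bp lay inside a BioRep3 peak of 129 bp (chr7:140924950-140925078). Downstream of it, a BioRep1 peak of 63 bp and a BioRep2 peak of 85 bp overlapped by 18 bp, between chr7:140924635-140924697 and chr7:140924680-140924764. Only the BioRep2 peak of that pair reached the window, so BioRep1 had no peak in the window although its read density there was that of the other replicates. The last BRAF peak, of 71 bp, came from BioRep3 alone (chr7:140924221-140924291) and spanned the start to which the RefSeq promoter sequence belongs. With the window widened to 1 kb on each side, BRAF had a peak in each list, at these different places.

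MAP2K1, which encodes the kinase MEK1, had the highest density of the 6 windows and the longest peaks of the 7 genes (window chr15:66386618-66387017, ENSG00000169032.9, gene chr15:66386912-66491544). The window held 79.8, 88.7 and 81.6 CPM in the BioRep1 libraries, 120, 93.4 and 73.6 CPM in BioRep2, and 103, 116 and 125 CPM in BioRep3. BioRep1 lay below BioRep3 without overlap, while the BioRep2 libraries spread over both. The mean was 97.8 ± 15.7 CPM (SD, n = 3), above 97.7% of protein-coding windows. The peaks measured 240, 330 and 406 bp in BioRep1, BioRep2 and BioRep3, and 78.7, 84.7 and 89.1% of the peaks in the same lists were shorter.

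The MAP2K1 signal cannot be separated from that of TIPIN, a replication fork protein gene on the opposite strand. The TIPIN window (chr15:66386547-66386946, ENSG00000075131.9) starts from a TSS 71 bp away and shares 329 bp with that of MAP2K1. It held 540 reads over the 9 libraries, against 545 for MAP2K1, and 97.3 ± 13.2 CPM (SD, n = 3). These are largely the same reads.

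MAP2K2, which encodes MEK2, had a peak of each list in its window and a lower density (window chr19:4123930-4124329, ENSG00000126934.13, gene chr19:4090321-4124122). The window held 45.4, 64.5 and 52.6 CPM in the BioRep1 libraries, 41.6, 57.9 and 45.4 CPM in BioRep2, and 48.3, 53.1 and 62.3 CPM in BioRep3. The 3 groups overlapped throughout. The mean was 52.4 ± 3.5 CPM (SD, n = 3), above 79.9% of protein-coding windows. The BioRep2 peak of 88 bp lay inside the BioRep1 peak of 194 bp, and this inside the BioRep3 peak of 279 bp, with the part common to all upstream of the start.

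SRC, the founding member of its kinase family, had a window no higher than the background level and peaks farther downstream (window chr20:37344486-37344885, ENSG00000197122.11, gene chr20:37344699-37406050). The window held 6.26, 8.06 and 9.06 CPM in the BioRep1 libraries, 17.3, 5.91 and 9.4 CPM in BioRep2, and 6.23, 10.1 and 1.68 CPM in BioRep3. The groups overlapped, and the highest and lowest values stood for 10 reads and 1 read. In all, 45 reads fell in the window (95% exact Poisson interval 32.8 to 60.2, counting error only), and the mean of 8.22 ± 2.47 CPM (SD, n = 3) was above 17.5% of protein-coding windows. A BioRep2 peak of 61 bp and a BioRep3 peak of 93 bp overlapped by 27 bp inside the gene (chr20:37346031-37346091 and chr20:37345965-37346057), more than 1 kb downstream of its 5′ end. No window covers that place, and no read density was measured there.

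Over the 9 libraries the windows with a peak held from 220 reads at ARAF (95% exact Poisson interval 192 to 251) to 545 reads at MAP2K1 (500 to 593). The order of the 6 windows by density was MAP2K1, BRAF, MAP2K2, NRAS, ARAF and SRC. MAP2K1 exceeded BRAF in 9 of 9 libraries, with a ratio of 1.69 ± 0.247 (SD, n = 3), and ARAF exceeded SRC in 9 of 9, and in both cases even the library values did not overlap. BRAF and MAP2K2 differed by a ratio of 1.11 ± 0.0664 and MAP2K2 and NRAS by 1.24 ± 0.0685. In both pairs the replicate means stood apart but the libraries overlapped, and the first gene was higher in 5 and 7 of 9 libraries. NRAS and ARAF overlapped in their replicate means as well. Within the kinase pairs, MAP2K1 over MAP2K2 gave 1.54, 1.98 and 2.1 in BioRep1, BioRep2 and BioRep3 (1.87 ± 0.295), and BRAF over ARAF gave 1.74, 1.41 and 1.37 (1.51 ± 0.206), each higher in 9 of 9 libraries. With 3 biological replicates a two-sided paired permutation test cannot go below p = 0.25, and none was made. Set against local background, as described below, BRAF and ARAF were close, at 4.27 ± 0.17 and 4.19 ± 0.551 times. There MAP2K1 stayed above MAP2K2 in each replicate.

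**Figure D2:**
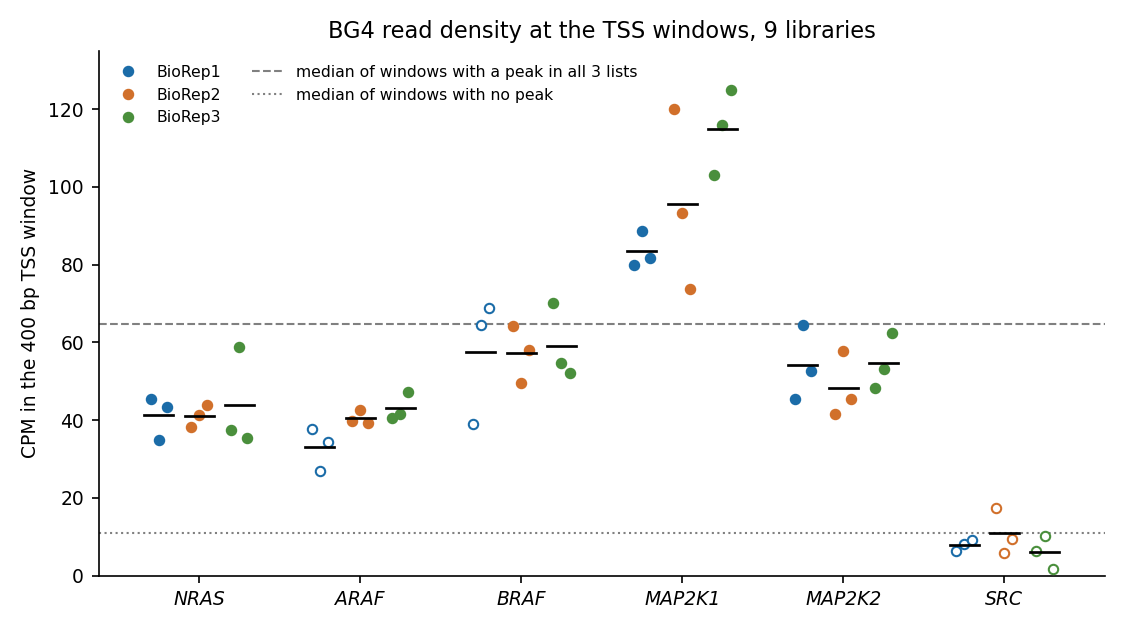
CPM in the 400 bp TSS window of 6 genes in each of the 9 libraries (points, 3 technical libraries per biological replicate, colours) with the mean of each biological replicate (black bars). Filled points have a peak of that replicate's list in the window and open points have none. MAP2K1 lies above the dashed line, the median of 64.6 CPM of windows with a peak in all 3 lists. SRC lies mostly below the dotted line, the median of 11.1 CPM of windows with no peak.

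In 3 of the 6 windows (NRAS, MAP2K1 and MAP2K2) all 3 lists had a peak, against 23.9% of protein-coding windows. A further 2, ARAF and BRAF, had a peak in BioRep2 and BioRep3 only, against 9.14%, and SRC had none, against 58.7%. Counted with at least 2 lists the members numbered 5 of 6, against 34.2%, and with only the wider part of each list's peaks (above its median length) 1 of 6, MAP2K1, against 14%. Among protein-coding windows with a peak in all 3 lists the median density was 64.6 CPM, with quartiles at 52.8 and 79.6. MAP2K1 lay above the upper of these, NRAS and MAP2K2 below the lower one. The lists were called from the libraries that give the densities, so each is no independent support for the other.

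**Figure D3:**
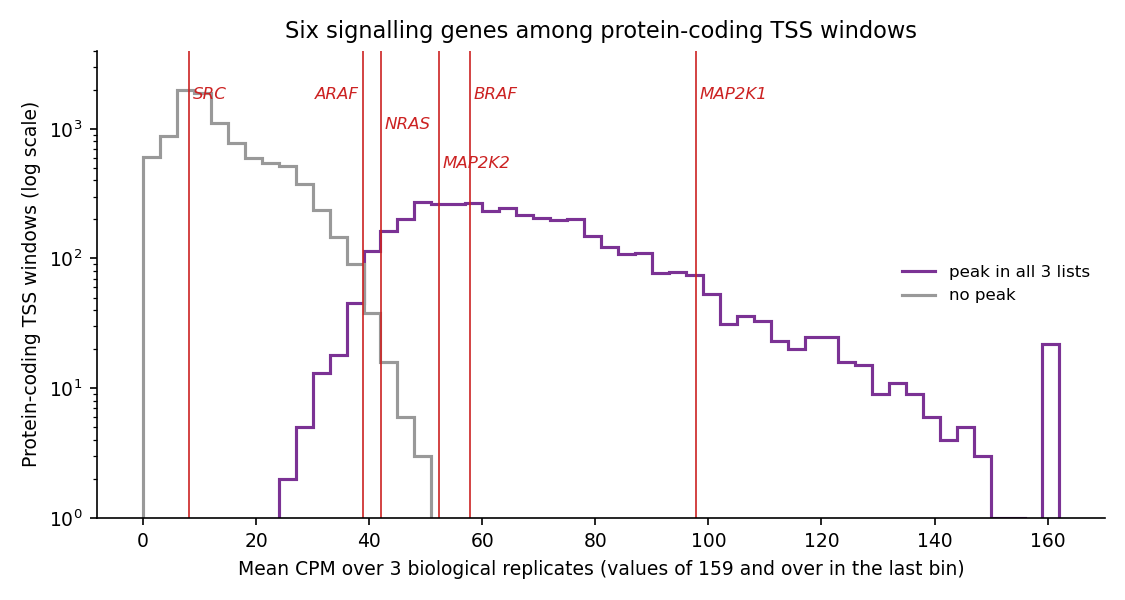
Histogram of mean CPM over the 3 biological replicates for protein-coding TSS windows with a peak in all 3 lists (purple) and with no peak (grey), on a log count axis, with the 6 signalling genes as red lines. ARAF at 38.9 CPM and NRAS at 42.1 CPM fall where the classes overlap, MAP2K1 at 97.8 CPM falls among windows with peaks, and SRC at 8.22 CPM among those without.

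Each window was also set against the windows within 2 Mb that had no peak in any list. That background was 12.2 ± 0.509 CPM around NRAS, 9.28 ± 0.233 around ARAF, 13.6 ± 0.365 around BRAF, 12.1 ± 0.951 around MAP2K1, 11.3 ± 0.478 around MAP2K2 and 11.1 ± 0.587 around SRC (SD, n = 3), and its part in the levels was not tested. MAP2K1 had 8.19 ± 1.92 times its surroundings, MAP2K2 4.62 ± 0.299, BRAF 4.27 ± 0.17, ARAF 4.19 ± 0.551 and NRAS 3.45 ± 0.204 times, each above them in 9 of 9 libraries. These 5 windows have peaks and the background was chosen for lacking them, with lists called from the same libraries. That they exceed it was thus largely fixed by the choice. On this scale ARAF, the lowest of the 5 by CPM, came before NRAS, but not against all windows without a peak (4.19 against 4.53). BRAF and ARAF stood at 4.11 and 3.61 times in BioRep1, 4.23 and 4.24 in BioRep2, and 4.45 and 4.71 in BioRep3. SRC had 0.742 ± 0.243 times its surroundings and exceeded them in 1 of 9 libraries.

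None of the 5 members tested passed a test between biological replicates. In edgeR's quasi-likelihood test with Benjamini-Hochberg adjustment over 17499 windows, 0 windows passed an adjusted p of 0.05 in the test over all 3 replicates or in any of the 3 contrasts (0.0% of windows), while 1377 had an unadjusted p under 0.05 in the first, and DESeq2 also called 0. The largest difference among these 5 was that of MAP2K1, with 83.4 CPM in BioRep1 and 115 CPM in BioRep3 and a log2 of BioRep1 over BioRep3 of -0.42 (SE 0.14, 95% interval -0.69 to -0.14, adjusted p = 0.412). For NRAS, BRAF and MAP2K2 the 9 contrasts lay between -0.11 and 0.11. Their 95% intervals stayed between -0.49 and 0.5, and differences inside them were not detectable at this depth. All these intervals, that of MAP2K1 included, use a normal multiplier and are narrower than the test itself would give. Of the 6 windows, ARAF and MAP2K1 had all BioRep1 libraries below all of BioRep3, against 9.32% of protein-coding windows, and ARAF alone below all of BioRep2, against 7.92%. SRC was too low to enter the test, and with no filter its log2 of BioRep2 over BioRep3 was 0.67 in edgeR's fit (adjusted p = 1.0).

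**Figure D4:**
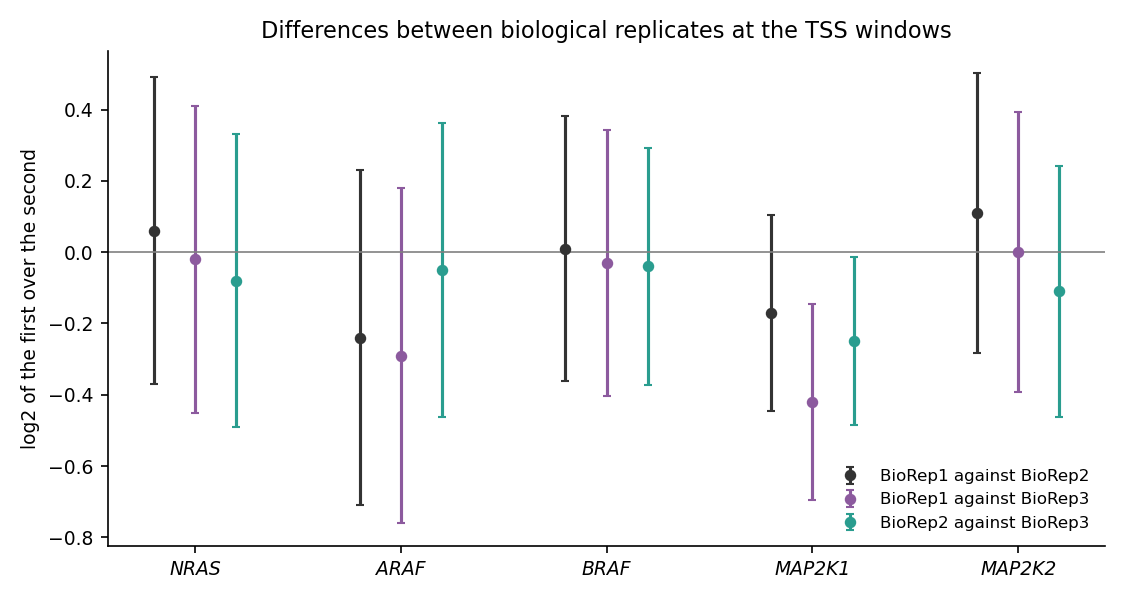
Log2 difference in read density between biological replicates at the TSS windows of 5 genes, each point the first replicate over the second in edgeR's fit with a 95% interval. The intervals use a normal multiplier and are narrower than the test itself would give. All but those of MAP2K1 for BioRep1 against BioRep3 and BioRep2 against BioRep3 include 0. For the second of these, edgeR's test gave an unadjusted p of 0.082, so leaving out 0 is due to the narrow interval. No difference passed the adjusted threshold.

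The windows most like each member over the 9 libraries, by the mean absolute difference in log2(CPM + 0.5), lay on other chromosomes for every member but MAP2K1. TIPIN was nearest to MAP2K1 (0.04), through the shared reads, and DNAJC3 next (0.11). BRAF was nearest to SLC45A4 (0.06) and MOSPD2 (0.1), MAP2K2 to PPIL2 (0.07) and TMEM18 (0.08), and all 4 of these had a peak in each list. ARAF was nearest to JMY (0.08) and C2orf74 (0.09), with peaks in 2 lists and 1 list, and NRAS to TTC39B (0.09) and RBM11 (0.12), with peaks in 3 lists and 1 list. SRC, where few reads make every value coarse, was nearest to OR2B2 (0.25), without a peak.

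Among 69 other genes of the pathway, 63 had a window by the same rule and 24 of these had a peak of all 3 lists (38.1%, against 23.9% of protein-coding windows). Their median density was 35.4 CPM, against 23.6 CPM over protein-coding windows, and 29 had no peak. The count was 3 of 10 for adaptors and exchange factors. GRB2, the adaptor that brings exchange factors to receptors, had 98.1 ± 7.59 CPM (SD, n = 3) and SHC1, another adaptor, 81.5 ± 12.6 CPM, both with shared peaks. GAB1, a docking protein, and RASGRF1, an exchange factor of neurons, had no peak, with 31.2 ± 2.48 and 18.2 ± 2.02 CPM.

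Relatives and inhibitors of RAS were mixed. Of the other RAS family GTPases 2 of 5 had a shared peak, RRAS with 80.1 ± 11.6 CPM and RAP1B with 68.1 ± 7.57 CPM (SD, n = 3), while RRAS2 and MRAS had none, at 12.4 ± 2.03 and 12.3 ± 1.9 CPM. Of the GTPase activating proteins and inhibitors 3 of 10 had one, among them NF1, the neurofibromin gene, with 50.3 ± 1.63 CPM. RASAL2 and RASA3, which also switch RAS off, had no peak at 36 ± 5.45 and 28.3 ± 2.65 CPM.

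The kinases and scaffolds had a shared peak in 8 of 14 windows. IQGAP1, a scaffold that binds RAF, MEK and ERK, had 149 ± 16.3 CPM (SD, n = 3), and SHOC2, which helps to release RAF from inhibition, 109 ± 7.42 CPM. The scaffolds KSR1 and KSR2 had no peak, at 26.3 ± 3.31 and 26.1 ± 1.25 CPM. MAPK3, which encodes an ERK kinase and was named after its values were seen, had 52.2 ± 5.97 CPM and a shared peak.

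Downstream, 2 of 7 feedback genes and 5 of 9 targets of ERK had a shared peak. DUSP5, a nuclear ERK phosphatase, had 70.3 ± 5.27 CPM (SD, n = 3) and SPRY2, a Sprouty inhibitor, 49.9 ± 6.12 CPM, while the phosphatases DUSP4 and DUSP7 had no peak at 29 ± 5.35 and 28.6 ± 5.85 CPM. Of the targets, the ETS factors ELK4 and ELK1 had 79.7 ± 2.5 and 56.5 ± 7.92 CPM with shared peaks, and the kinase RPS6KA3 had 15.2 ± 2.56 CPM without one. Among the SRC family kinases and their inhibitor CSK, 1 of 8 had a shared peak, FYN, with 99.3 ± 15.9 CPM. YES1 and BLK had none, at 27.2 ± 3.58 and 25.1 ± 5.26 CPM.

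**Figure D5:**
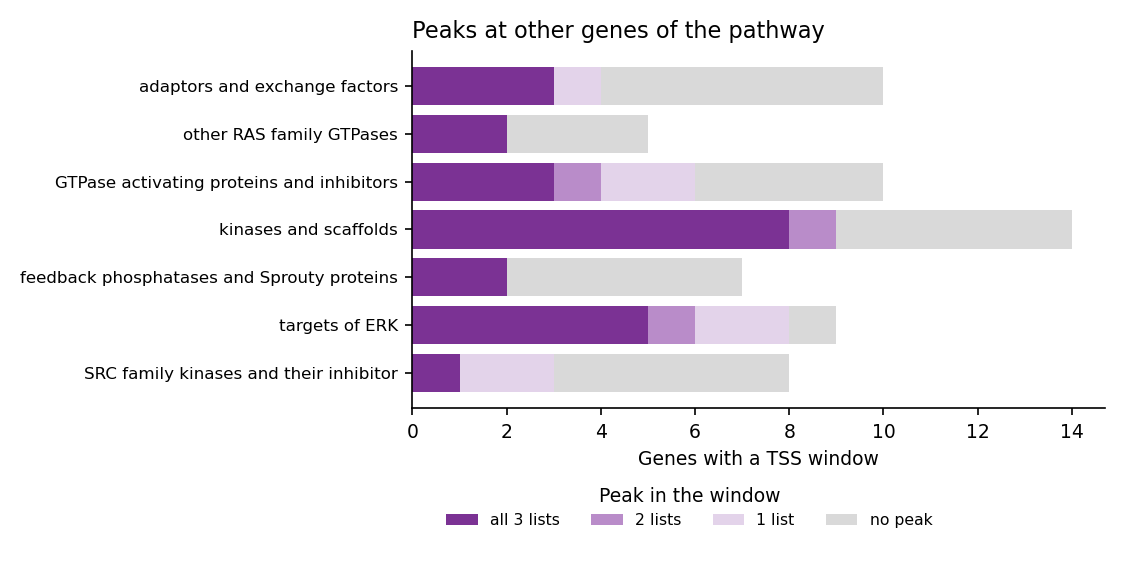
Number of other pathway genes with a TSS window by role, split by how many of the 3 peak lists had a peak in the window. Kinases and scaffolds (8 of 14) and targets of ERK (5 of 9) show the longest dark bars, and SRC family kinases (1 of 8) the shortest.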

How the data were processed

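The authors deposited read counts for each of 9 ChIP libraries in 58381 windows of 400 bp around a TSS, and, as positions only, 1 peak list per biological replicate. These are raw counts without scaling for depth or input, judged from the values. Per the submitters' processing notes, hg38 was the build and MACS2, BWA, Picard, bedtools and cutadapt were used. The peak threshold, the versions, how technical libraries were joined and the handling of duplicates: none is given in the sources used here. Leaving out duplicate reads would lower dense windows most.

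The windows carry Ensembl IDs without gene names, so names come by position from the RefSeq gene table (GRCh38.p14). A window can miss the place where a gene's peaks lie, as for HRAS, or hold a neighbour's reads, as for MAP2K1. CPM is scaled to reads in windows, averaged over 3 technical libraries and given as mean ± SD over 3 biological replicates. A shared peak in a window means that each list overlaps it by 1 bp or more. Counts were tested with edgeR 4.0.16 in R 4.3.3 (TMM, filterByExpr, robust quasi-likelihood fit, Benjamini-Hochberg at 0.05). The SE of a contrast is its size over the root of F. Each library's reads limit precision. The Poisson intervals cover counting error only, and those of the contrasts also the spread between technical libraries. On counts simulated for BioRep1 against BioRep2 over 17499 windows the test found 64% of windows changed 2-fold, 18% at 1.5-fold and 100% at 3-fold (50 windows per size), with 6 false calls. Changed windows were raised in BioRep1 only. Every simulated window had the same dispersion (spread beyond counting error) of 0.0011, so recovery in windows that vary more was not tested.

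Members and lists were chosen with earlier results of these data known, and no set test was made. All 7 members are named. Of the other pathway genes, up to 2 with a shared peak and 2 without a peak per role are named by density, with neighbours within 1 kb and the 2 most similar genes per member. A few genes named by it are not reported here but remain in the counts. DESeq2 1.42.0, other scalings, filters, overlap rules, backgrounds and left-out libraries were tried. Other steps and plots used pandas 2.3.3, scipy 1.17.1, matplotlib 3.10.9 and numpy 2.4.6 in Python 3.11.15.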

Additional observations from a re-analysis of the deposited data

How the results depend on the processing

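None of 300 refits of the 5 tested members between biological replicates passed. Of these, 75 were tests over all 3 replicates, which have no sign, and among the others, the contrasts, 28 had the opposite sign. For ARAF the log2 of BioRep2 over BioRep3 ran from -0.09 to 0.00 when 1 library was left out, with 0.00 without BioRep3 replicate 3. Over all windows, where 0 were called, library size alone called 6 over all replicates and 15 for BioRep1 against BioRep3. With no filter 25 were called over all replicates, 6 for BioRep1 against BioRep2 and 28 for BioRep1 against BioRep3. The replicate block called 1 window for BioRep1 against BioRep2 and 1 for BioRep1 against BioRep3. The technical numbers did not pair the libraries, since same-numbered libraries deviated together with correlations of -0.0148 to 0.0264. Leaving out 1 library gave 0 to 1 windows over all replicates, 0 to 1 for BioRep1 against BioRep2 and 0 to 2 for BioRep1 against BioRep3. The libraries without which a window was called were BioRep1 replicate 1, each of BioRep2 and BioRep3 replicate 2. The causes were not tested.

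Members with a shared peak in the window numbered 3 of 6, against 5 with at least 2 lists (34.2% of protein-coding windows), 5 with any list (41.3%) and 1 with wide peaks only (14%). Without BioRep1 they numbered 5 (33%), and 3 without BioRep2 (24.7%) or BioRep3 (24.2%). Members with a shared region numbered 4 of 7, against 2 with wide peaks only (20.8% of genes) or with an overlap of 50% of both peaks (22.6%), HRAS and MAP2K1 in both cases. Without BioRep1 they numbered 7 (44.6%), without BioRep2 4 (34.9%) and without BioRep3 5 (34%). Members with a motif numbered 3 of 6, against 5 with loops of up to 12 bases (45.1% of promoters) and 6 with runs of at least 2 G (89.2%). The pathway count of 24 stayed within 1.5 times under 8 alternatives.

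NRAS ranged from 39.6 to 43.5 CPM and BRAF from 56 to 61 CPM over left-out libraries and replicates, and BRAF had 59.7 CPM without mitochondrial windows. Against all windows without a peak the ratios were 4.53 for NRAS, 4.19 for ARAF, 6.23 for BRAF, 10.6 for MAP2K1 and 5.63 for MAP2K2. There NRAS came before ARAF, and BRAF before MAP2K2. Against windows within 5 Mb the ratios were 4.78 for ARAF, 4.86 for MAP2K2 and 5 for BRAF, and within 1 Mb 4.07 for BRAF. Within 5 Mb, too, BRAF came before MAP2K2. Depth limits SRC most, with 1 to 10 reads per library.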
